A study of Rattus norvegicus with 21 samples.

Results

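Matrix metalloproteinases (MMPs) and the tissue inhibitors of metalloproteinases (TIMPs) were followed in 16 pituitary lesions of MENX mutant rats and in 5 pituitaries of wild-type rats. The set held 10 genes, the 6 metalloproteinases Mmp2, Mmp9, Mmp11, Mmp14, Mmp15 and Mmp16 and the 4 inhibitors Timp1, Timp2, Timp3 and Timp4, of 14506 gene symbols that had a probe set of their own on the array. The genes were chosen by name, and each had a single probe set, so that no choice between probe sets was needed. RNA was measured on 21 arrays of the type Affymetrix Rat Gene 1.0 ST, and every level below is a log2 RMA value, on which a difference of 1 is a 2-fold change. The mutant rats were homozygous for the germline MENX mutation of Cdkn1b, the gene of the cell cycle inhibitor p27Kip1, and their gonadotroph adenomas were macro- or microdissected from the anterior lobe. The labels gave all rats the same mixed background, Sprague-Dawley white eye with Wistar-Kyoto. Normal pituitaries of wild-type rats of 6 months (2 females, 3 males) were the control group, and the mutant rats were 7 to 12 months old (6 females, 3 males), so that genotype and age cannot be told apart. The 16 lesions carried 9 sample numbers, which were read as animals and are called rats A to I here. The study's text counts more rats and gives a younger age than the labels do. Lesions keep the labels' numbers: lesions 1 and 2 came from rat A, 3 and 4 from rat B, 5 to 7 from rat C, 8 from rat D, 9 to 11 from rat E, 12 from rat F, 14 from rat G, 15 from rat H, and 16 and 17 from rat I.

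MMPs are zinc-dependent endopeptidases that cut collagens, laminins and other matrix proteins, and they are made as inactive proenzymes that need a cut in their propeptide or a chemical change there to become active. TIMPs bind the active site of MMPs, and TIMP2 has a further role, since it bridges membrane-bound MMP14 and the proenzyme of MMP2 at the cell surface. In the pituitary, MMPs and TIMPs are known from endocrine cells, pericytes, fibroblasts and vessels, and they have been studied for the growth of adenomas into neighbouring tissue. Transcript levels tell nothing of proenzyme activation or of inhibitor binding.

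Promoters in the RefSeq tables were matched for 6 of the 10 genes, Mmp11, Mmp15 and the 4 TIMPs, each as 250 bases before and 50 bases after the start in assembly GRCr8. The 2 shown belong to Timp1, the inhibitor that is known to bind the proenzyme of MMP9, and to Timp3, the gene of the set whose level differed most between the mutant rats. They are written 5′ to 3′ on the gene's strand, and capitals mark matches on either strand to the motifs named below.
Timp1, chrX:3771073-3771372, minus strand: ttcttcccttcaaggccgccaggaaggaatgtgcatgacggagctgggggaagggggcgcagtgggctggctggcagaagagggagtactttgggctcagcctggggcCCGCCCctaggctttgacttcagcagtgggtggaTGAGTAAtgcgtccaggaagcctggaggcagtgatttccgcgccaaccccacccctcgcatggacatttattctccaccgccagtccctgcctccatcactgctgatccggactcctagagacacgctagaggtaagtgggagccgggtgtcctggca
Timp3, chr7:19459509-19459808, minus strand: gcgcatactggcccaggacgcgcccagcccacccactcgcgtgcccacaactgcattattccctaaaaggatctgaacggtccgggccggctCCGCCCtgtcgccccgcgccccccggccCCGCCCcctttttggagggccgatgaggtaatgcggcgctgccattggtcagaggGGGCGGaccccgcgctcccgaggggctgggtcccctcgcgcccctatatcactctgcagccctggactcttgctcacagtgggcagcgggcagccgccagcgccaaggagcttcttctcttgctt
The capitals in Timp1 are 1 match to TGAGTAA, an AP-1-like element, and 1 to GGGCGG, the core of the GC box, while those in Timp3 are 3 matches to GGGCGG. Both strands were searched, and none of the motifs overlapped another. TGAGTAA is found in 2.9% and GGGCGG in 33.1% of the 33469 promoters of the table. Of the other matched promoters, that of Mmp11 holds 4 GGGCGG matches, Mmp15 and Timp2 hold 1 each, and Timp4 holds 0. The letters TGANTCA, found in 7.33% of all promoters, and TATAAA, found in 14.2%, are in none of the 6 windows. The GC content of the windows was 68.0% for Mmp11, 65.0% for Mmp15, 61.3% for Timp1, 70.3% for Timp2, 68.7% for Timp3 and 50.3% for Timp4. Timp1 lies inside Syn1 on chromosome X, Timp4 inside Syn2 on chromosome 4, and Timp3 inside Syn3 on chromosome 7, all of them synapsin genes. Timp1 and Timp4 run on the strand opposite to their synapsin gene, and the strand of Syn3 was not listed. Mmp11 overlaps Chchd10 on the opposite strand and Timp2 overlaps Cep295nl on the same strand, and whether these probe sets also measure the neighbour was not tested.

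None of the 10 genes passed the test between adenomas and wild-type pituitary. The test was limma on 9 rat means against 5 wild-type values, with Benjamini-Hochberg adjustment over all 29214 probe sets, and of those 17.5% were called at an adjusted p under 0.05, 8.49% as higher and 9.06% as lower in adenomas. The members' adjusted p ran from 0.103 to 0.884. At an unadjusted p under 0.05 the count was 2 of 10, Mmp14 and Mmp15, where 32.7% of all probe sets lay. The adenoma mean was above the wild-type mean for 7 genes and below it for 3, and the median difference was 0.06 on the log2 scale, beside −0.035 over all probe sets. In 9 of 10 genes the 95% interval of the difference lay inside a 2-fold change in either direction, and Timp3 was the exception. Mmp9 and Timp4 were dim, with means over the 21 arrays above those of only 33.1% and 43.4% of probe sets. RMA understates folds near background, so narrow intervals at such levels do not show that these genes were unchanged. The rats and the wild-type pituitaries overlapped in every one of the 10 genes, while in 4.82% of all probe sets they did not. Lesions are bulk tissue, in which fewer cells of a type and less RNA per cell cannot be told apart. Lesion 5 of rat C had the lowest correlation with the other lesions, with a median r of 0.972 in a range of 0.972 to 0.985 over lesions, and without it the count of members called was also 0.

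**Figure D1:**
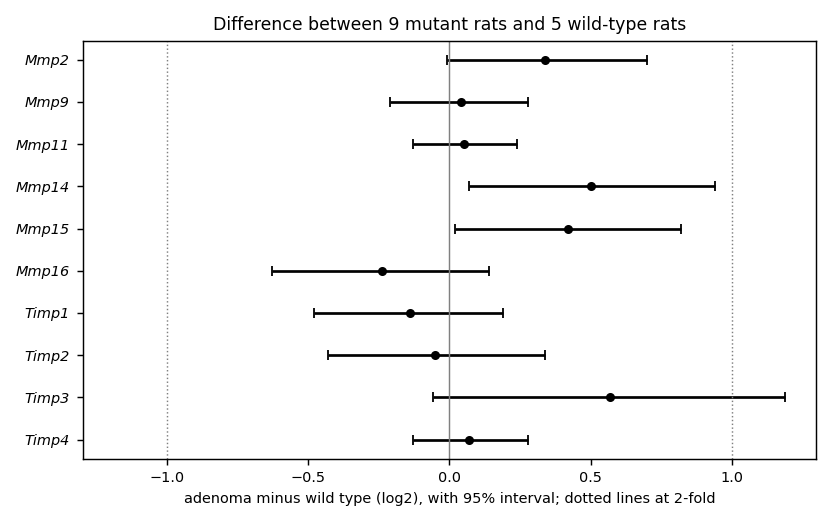
Difference between adenomas and wild-type pituitary for each gene, as the mean of 9 mutant rats minus the mean of 5 wild-type rats on the log2 scale; bars are 95% intervals and dotted lines mark a 2-fold change. The intervals of Mmp14 (0.07 to 0.94) and Mmp15 (0.02 to 0.82) lie above 0 and that of Timp3 (−0.06 to 1.19) reaches past 2-fold.

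Mmp2 encodes gelatinase A, which cuts denatured collagen and type IV collagen of basement membranes. In wild-type pituitaries 1 to 5 Mmp2 stood at 6.75, 7.18, 7.40, 7.11 and 6.71. Over the 16 lesions the lowest value was 6.88 in lesion 4, the median 7.23 and the highest 8.36 in lesion 5. The rat means were 6.99 in A, 7.08 in B, 7.69 in C, 7.18 in D, 7.08 in E, 7.28 in F, 7.66 in G, 7.95 in H and 7.46 in I, so that C, G, H and I lay above every wild-type pituitary and the other 5 rats within their range. The adenoma mean was 7.38 ± 0.33 (SD, n = 9) and the wild-type mean 7.03 ± 0.29 (SD, n = 5), a difference of 0.34 with a standard error of 0.17 (limma, unadjusted p = 0.055, adjusted p = 0.163). Without lesion 5 the mean of rat C was 7.36 and the difference 0.31 (limma, adjusted p = 0.191).

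Mmp9 encodes gelatinase B, which neutrophils, macrophages and tumor cells can release. Its wild-type values were 5.68, 5.38, 5.17, 5.56 and 5.74, and its lesions ran from 5.05 in lesion 9 over a median of 5.48 to 6.00 in lesion 8. The groups lay over each other, and rat D, the source of lesion 8, was alone above all wild-type pituitaries. The means were 5.54 ± 0.20 (SD, n = 9) in adenomas and 5.51 ± 0.23 (SD, n = 5) in wild type, and the 95% interval of the ratio ran from 0.866-fold to 1.21-fold (limma, adjusted p = 0.865). A neutrophil marker list of 9 genes averaged 5.28 to 5.55 in wild type and 5.32 to 5.62 in the rats. Of its genes 1 was called as lower and 0 as higher (11.1%, beside 17.5% of all probe sets). The macrophage markers averaged 6.29 to 6.84 in wild type and 6.80 to 7.70 in the rats, with 9 of 13 called as higher (69.2%). The part of these cells in Mmp9 was not tested.

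Mmp11 encodes stromelysin-3, an enzyme of fibroblasts around carcinomas that is activated inside the cell by furin. Wild-type pituitaries had 6.46, 6.58, 6.25, 6.50 and 6.67, and the lesions had a lowest value of 6.33 in lesion 5, a median of 6.51 and a highest value of 6.76 in lesion 12. Rats D and F, with 6.75 and 6.76, were above all wild-type values, and the other 7 rats were not. The difference of 0.05, with an adenoma mean of 6.55 ± 0.14 (SD, n = 9) and a wild-type mean of 6.49 ± 0.16 (SD, n = 5), had an interval from 0.916-fold to 1.18-fold (limma, adjusted p = 0.697).

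Membrane-type MMPs are anchored at the cell surface, and Mmp14, Mmp15 and Mmp16 encode MT1-, MT2- and MT3-MMP. Mmp14 cuts fibrillar collagen and activates the proenzyme of MMP2. It stood at 6.67, 6.84, 6.90, 6.79 and 7.13 in the wild-type pituitaries. In the lesions of rats with several it was 6.82 and 7.20 in A, 6.93 and 6.80 in B, 7.75, 7.11 and 7.66 in C, 6.78, 6.98 and 7.09 in E, and 7.85 and 7.92 in I. The single lesions had 7.07 in D, 7.05 in F, 7.90 in G and 8.08 in H. Rats C, G, H and I exceeded every wild-type pituitary, while A, B, D, E and F lay between the wild-type extremes. The adenoma mean of 7.37 ± 0.48 (SD, n = 9) against 6.87 ± 0.17 (SD, n = 5) gave a difference of 0.50 with a standard error of 0.20, or 1.42-fold with a 95% interval from 1.05-fold to 1.92-fold. This had an unadjusted p of 0.0268 and an adjusted p of 0.103 in limma. The call turned with 2 of 30 alternatives, the prefix of the sample number as a block (difference 0.58, limma adjusted p = 0.024, with 19.7% of all probe sets called) and the methods' t-test with unequal variances on single lesions (difference 0.45, adjusted p = 0.0479, with 10.0% called).

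Mmp15 has been described in epithelial and tumor tissue as a membrane-bound enzyme that can activate the proenzyme of MMP2. The wild-type values were 6.93, 7.23, 7.47, 7.27 and 6.89, and the lesion values had their lowest at 6.81 in lesion 1, their median at 7.64 and their highest at 8.16 in lesion 8. Rats B, D, E, G, H and I, with means from 7.59 to 8.16, were above all wild-type pituitaries, and A, C and F, with 7.01, 7.25 and 6.98, were within them. The difference was 0.42 with a standard error of 0.19, or 1.34-fold (95% interval 1.01-fold to 1.77-fold, limma unadjusted p = 0.0418, adjusted p = 0.137). The order of the rats was not that of Mmp14, since rat D had the highest Mmp15 and a Mmp14 of 7.07 inside the wild-type range, and rat C had a Mmp14 of 7.51 and a Mmp15 of 7.25.

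Mmp16 is known from brain and other neural tissue. Its wild-type values were 7.06, 7.86, 7.98, 7.89 and 6.77, the widest wild-type SD of the 10 genes at 0.56. In the lesions Mmp16 ran from 6.74 in lesion 11 over a median of 7.26 to 7.73 in lesion 7, and all 9 rat means, from 7.06 to 7.66, lay between the wild-type extremes. The adenoma mean was 7.27 ± 0.18 (SD, n = 9) and the wild-type mean 7.51 ± 0.56 (SD, n = 5), a difference of −0.24 with a 95% interval from −0.63 to 0.14 (limma, adjusted p = 0.376).

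**Figure D2:**
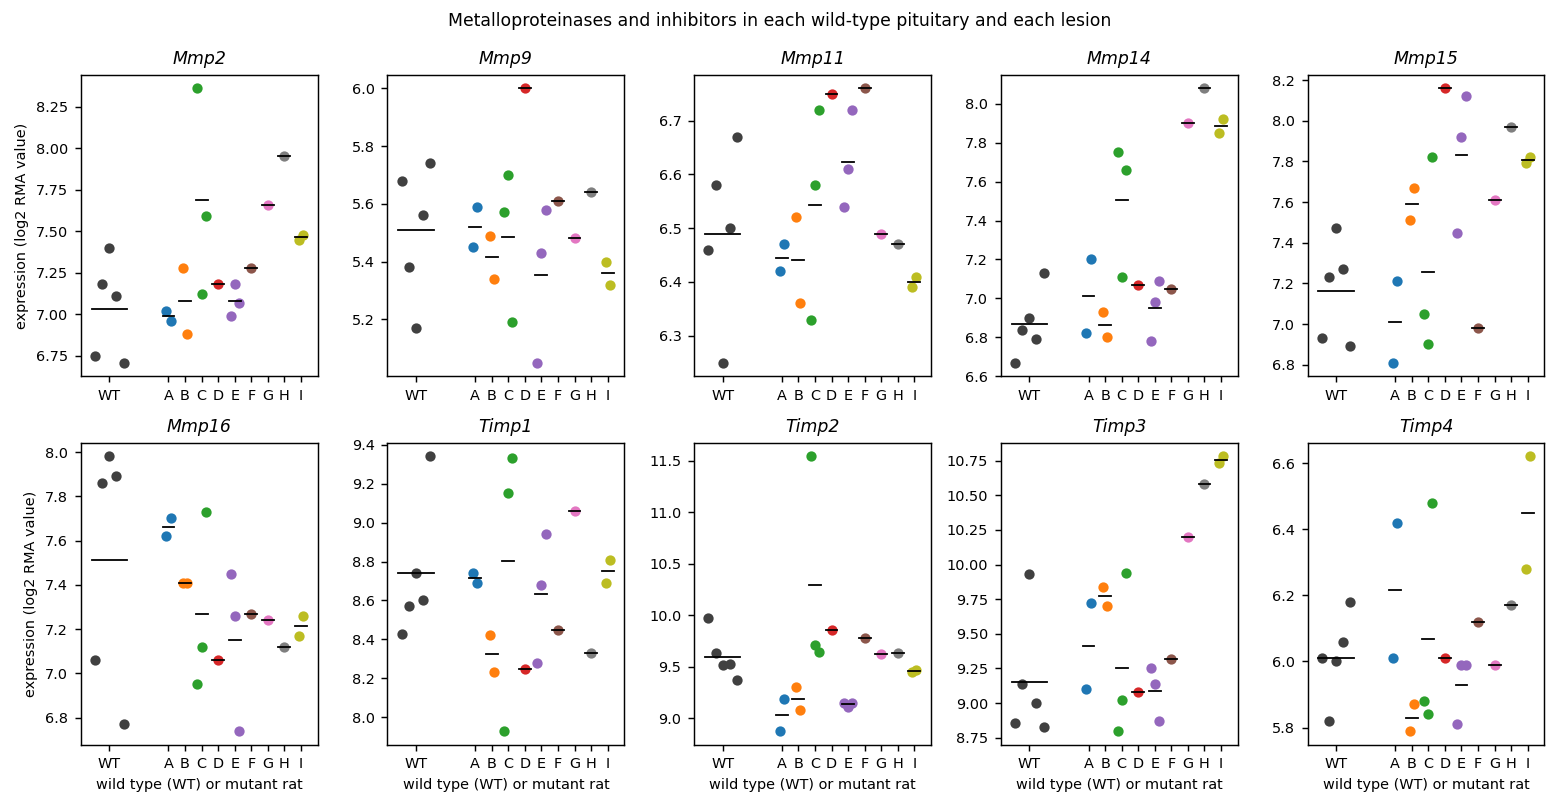
Log2 RMA values of the 10 genes, with 1 panel per gene and its own scale; black points are the 5 wild-type (WT) pituitaries, coloured points the 16 lesions set by rat A to I, and dashes the wild-type mean and the rat means. Rats G, H and I sit highest for Mmp14 and Timp3, and lesion 5 of rat C stands at 11.54 for Timp2.

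Among the inhibitors, Timp1 is a secreted inhibitor that responds to growth factors and cytokines in many tissues. Its wild-type values were 8.43, 8.57, 8.74, 8.60 and 9.34. The lesions of rat A had 8.74 and 8.69, of B 8.42 and 8.23, of C 7.93, 9.15 and 9.33, of E 8.28, 8.68 and 8.94, and of I 8.69 and 8.81. D, F, G and H had 8.25, 8.45, 9.06 and 8.33. Rats B, D and H were below every wild-type pituitary and none was above them all. The adenoma mean was 8.59 ± 0.27 (SD, n = 9) against 8.74 ± 0.35 (SD, n = 5), a difference of −0.14 with a 95% interval from −0.48 to 0.19 (limma, adjusted p = 0.558).

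Timp2, the partner of MMP14 in the activation of MMP2, stood at 9.97, 9.63, 9.52, 9.53 and 9.37 in wild type. In the lesions it was 8.88 and 9.19 in rat A, 9.30 and 9.08 in B, 11.54, 9.71 and 9.64 in C, 9.15, 9.11 and 9.15 in E, and 9.45 and 9.47 in I. The single lesions of D, F, G and H had 9.86, 9.78, 9.62 and 9.63. Rats A, B and E were below every wild-type value, D, F, G, H and I were within the wild-type range, and C alone was above it. That height rested on lesion 5: without it rat C was at 9.67, inside the wild-type range. The means were 9.56 ± 0.40 (SD, n = 9) and 9.60 ± 0.23 (SD, n = 5), a difference of −0.05 with a 95% interval from −0.43 to 0.34 (limma, adjusted p = 0.884), and without lesion 5 the difference was −0.12 (limma, adjusted p = 0.61).

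Timp3 differs from the other TIMPs in that its protein binds to the matrix, and it inhibits ADAM and ADAMTS proteases as well as MMPs. The wild-type pituitaries had 8.86, 9.14, 9.93, 9.00 and 8.83. The lesions had 9.10 and 9.72 in rat A, 9.84 and 9.70 in B, 8.80, 9.02 and 9.94 in C, 9.25, 9.14 and 8.87 in E, and 10.73 and 10.78 in I. D, F, G and H had 9.08, 9.32, 10.20 and 10.58. Rats G, H and I stood above all wild-type pituitaries and also above all lesions of the other 6 rats. The means of those 6 rats, 9.08 to 9.77, were inside the wild-type range. The top of that range was wild type 3 alone, at 9.93, and the next value was 9.14. Rats A, B, C and F, with means of 9.41, 9.77, 9.26 and 9.32, were above every wild-type pituitary but wild type 3. Without wild type 3 the difference was 0.76 (limma, adjusted p = 0.107). The mean of 9.72 ± 0.65 (SD, n = 9) against 9.15 ± 0.45 (SD, n = 5) gave a difference of 0.57 with a standard error of 0.29, or 1.48-fold with a 95% interval from 0.958-fold to 2.29-fold (limma, unadjusted p = 0.0737, adjusted p = 0.197).

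Timp4, an inhibitor best known from heart, brain and fat, had wild-type values of 6.01, 5.82, 6.00, 6.06 and 6.18. Its lesions ran from 5.79 in lesion 3 over a median of 6.00 to 6.62 in lesion 17. Rats A and I, with means of 6.22 and 6.45, were above all wild-type pituitaries, and the other 7 rats overlapped with them. The difference was 0.07 with a 95% interval from −0.13 to 0.28 (limma, adjusted p = 0.626).

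Lesions of the same rat were set against the rats among themselves. The 5 rats with several lesions gave a pooled SD between lesions of the same rat with 7 degrees of freedom. For Mmp14 this SD was 0.23 and the SD between rat means 0.48, a ratio of 2.06, and for Timp3 they were 0.38 and 0.65, a ratio of 1.7. For Mmp11 and Mmp15 the ratios were 1.1 and 1.23, and for the other 6 genes the SD between rats was the smaller one, down to 0.601 for Mmp16 and 0.603 for Timp1. Rat C held the widest range between lesions of the same rat in 9 of the 10 genes, and for Mmp9 it was rat E. Rats C and E had 3 lesions each and rats A, B and I had 2, and a range tends to widen with the number of lesions. In rat C the range was 1.90 for Timp2, 1.40 for Timp1, 1.24 for Mmp2 and 1.14 for Timp3. Lesions 16 and 17 of rat I differed by 0.02 in Timp2, 0.13 in Timp1, 0.03 in Mmp2 and 0.05 in Timp3, and over all 10 genes by 0.02 to 0.34, the most in Timp4.

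**Figure D3:**
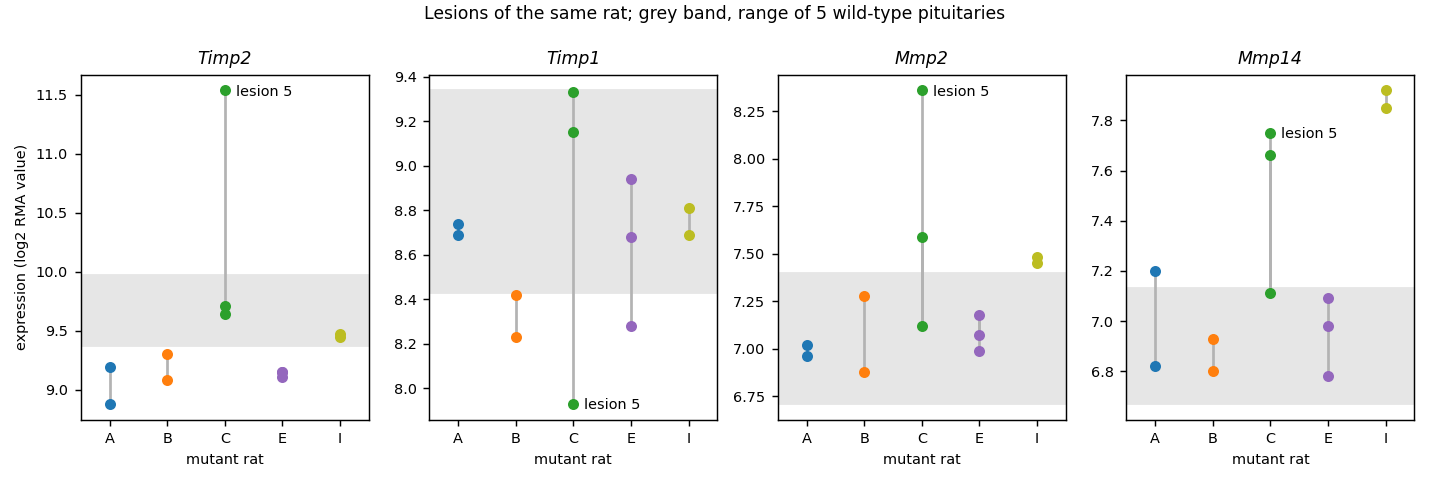
Log2 RMA values of Timp2, Timp1, Mmp2 and Mmp14 in the 5 rats with several lesions; points are lesions, grey lines join lesions of the same rat, and the grey band is the range of the 5 wild-type pituitaries. Lesion 5 of rat C is the highest for Timp2 (11.54) and Mmp2 (8.36) and the lowest for Timp1 (7.93).

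Lesion 5 lay outside the other 15 lesions for 5 of the 10 genes, beside 24.9% of all probe sets. It was above them for Timp2, with 11.54 against 8.88 to 9.86, and for Mmp2, with 8.36 against 6.88 to 7.95. It was below them for Timp1, with 7.93 against 8.23 to 9.33, for Timp3, with 8.80 against 8.87 to 10.78, and for Mmp11, with 6.33 against 6.36 to 6.76. The mean of 10 fibroblast and pericyte markers was 7.47 in lesion 5, 8.08 in lesion 6 and 8.30 in lesion 7 of the same rat, and that of 13 macrophage markers was 7.61, 7.42 and 7.49. The part of cell makeup in the values of lesion 5 was not tested.

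Known partners at the protein level were compared across the 9 rats, with 4 pairs in all. Mmp14 and Mmp2, an activator and its substrate, were correlated with r = 0.90 (exact permutation p = 0.00215, adjusted over the 4 pairs 0.0086) and rho = 0.87 (exact permutation p = 0.00451, adjusted 0.018). Without rats G and H, which lie farthest from the median of Mmp14, r was 0.79 over 7 rats. Rats I and C, at 7.89 and 7.51 in Mmp14, stayed in, while rats A, B, D, E and F lay from 6.86 to 7.07. The value of 0.79 therefore does not set all high rats aside. Over the 9 rats r was 0.93 without lesion 5 and 0.85 after the means of the number prefixes were subtracted (exact permutation p adjusted over the 4 pairs 0.000507 and 0.011). Timp2 with Mmp2 had r = 0.60 (exact permutation p = 0.0895, adjusted 0.164) and rho = 0.68 (exact permutation p = 0.0503, adjusted 0.101), and 0.38 was left without rats A and C. Timp2 with Mmp14 had r = 0.35 (exact permutation p = 0.36, adjusted 0.36) and rho = 0.48 (exact permutation p = 0.194, adjusted 0.23), with r = 0.28 without the same 2 rats. Mmp9 with Timp1, whose protein binds the proenzyme of MMP9, had r = −0.55 (exact permutation p = 0.123, adjusted 0.164). Their rho was −0.45 (exact permutation p = 0.23, adjusted 0.23), and without rats D and H r was −0.05. Thus of the 4 pairs only Mmp14 with Mmp2 passed. The rats highest in both genes were C, G, H and I, and of these G, H and I were alike in sex, age and prefix. Sex and age were not adjusted for in the correlations. The share of all probe sets that follow Mmp14 as closely over the 9 rats is not given here, so the correlation is not shown to be particular to partners.

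**Figure D4:**
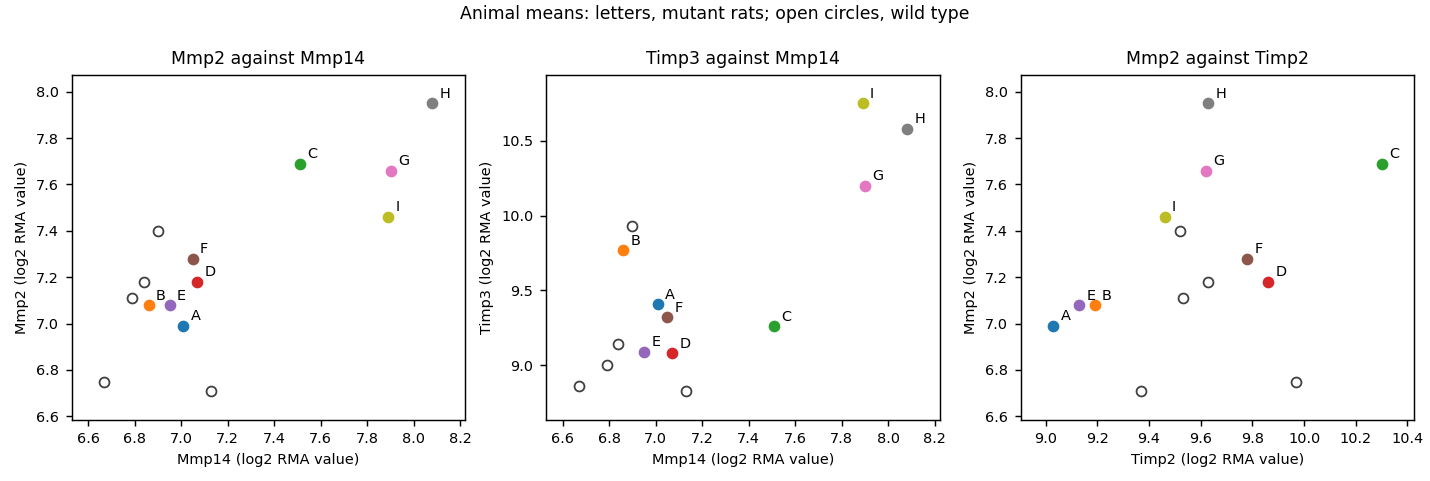
Animal values of Mmp2 against Mmp14, Timp3 against Mmp14 and Mmp2 against Timp2, in log2 RMA values; letters are the 9 mutant rats and open circles the 5 wild-type pituitaries. Mmp2 and Mmp14 go up together over the rats (r = 0.90), rats G, H and I stand apart in Timp3 and Mmp14, and rat C is highest in Timp2.

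As a description over all 14 animals, with each group's mean subtracted, the highest correlations between members were 0.72 for Mmp2 with Mmp14, 0.71 for Mmp14 with Timp3, 0.66 for Mmp2 with Timp3 and 0.66 for Mmp9 with Mmp11. The lowest were −0.71 for Mmp11 with Timp3 and −0.60 for Mmp9 with Mmp16. The same measure was taken against 15309 other probe sets with a single symbol for the 3 genes that varied most between the rats. Nearest to Mmp14 were Col4a1, a chain of basement membrane collagen, at 0.97, and Qki, an RNA-binding protein, and Olfml2a at 0.94 each. Nearest to Timp3 were Arhgap31 at 0.94, Prkce, a protein kinase C, at 0.93 and Tacc1 at 0.92. Mmp15 had no neighbour as near, with 0.82 for Or4p22, 0.77 for Dusp21 and 0.75 for Rxrg. These points share rats, and the highest values of so many comparisons are a description with no test.

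The highest values of Mmp14 and Timp3 were found in rats alike in sex, age and prefix of the sample number. Rats G, H and I were all female, 12 months old and of prefix 09, and no male mutant rat had that prefix. Rat E, also 12 months old but male and of prefix 08, had Mmp14 at 6.95 and Timp3 at 9.09, inside the wild-type range. Rat F, female and of prefix 09 but 8 months old, had Mmp14 at 7.05 and Timp3 at 9.32, also inside it. For Timp3, rat F was above every wild-type pituitary but wild type 3. Within prefix 08 the difference between adenomas and wild type was 0.32 for Mmp14 and 0.32 for Timp3, and within prefix 09 it was 0.79 and 0.96 (limma adjusted p = 0.361 and 0.436 in prefix 08, 0.0579 and 0.121 in prefix 09). What the prefix stands for is not stated in the labels, and the 4 mutant rats of prefix 09 were all female, so that prefix and sex cannot be told apart there, and only rat F among them was younger. With rats D and F alone, the mutant rats of 7 or 8 months and so nearest the wild-type age, the difference was 0.19 for Mmp14, 0.05 for Timp3 and 0.41 for Mmp15 (limma, adjusted p = 0.784, 0.98 and 0.77), and 0.455% of all probe sets were called. Over the 9 mutant rats the slope per month of age was 0.21 for Timp3 (limma, unadjusted p = 0.0382, adjusted p = 0.395), −0.08 for Mmp9 (limma, unadjusted p = 0.0168, adjusted p = 0.318) and −0.05 for Mmp11 (limma, unadjusted p = 0.0258, adjusted p = 0.353). No slope of the 10 genes passed, beside 0.00342% of all probe sets, and these 3 were at an unadjusted p under 0.05, where 11.8% of all probe sets lay.

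The labels give the sex of every rat, and both groups held both sexes. Female and male wild-type values did not overlap for 5 of the 10 genes, with 2 females and 3 males, beside 20.9% of all probe sets. Mmp2, Mmp15, Mmp16 and Timp3 were lower in the females and Mmp9 was higher. In the mutant rats, with 6 females and 3 males, the values of the sexes overlapped for all 10 genes, and 3.28% of all probe sets did not overlap. Values of 2 and 3 animals fall apart more easily than those of 6 and 3, so these counts do not show that a sex difference was lost. Mmp16 stood at 7.06 and 6.77 in the wild-type females and at 7.86, 7.98 and 7.89 in the wild-type males. In adenomas it ran from 7.06 to 7.66 in 6 females and from 7.15 to 7.41 in 3 males, so that the means of 7.26 and 7.28 differed little. The adenoma difference of Mmp16 was thus 0.35 in females and −0.63 in males, and their difference of −0.98 had a standard error of 0.20 and an adjusted p of 0.265 in limma (unadjusted p = 0.000308). For Timp3 the differences were 1.04 in females and 0.02 in males (limma interaction, adjusted p = 0.794), and for Mmp2 0.69 and 0.05 (limma interaction, adjusted p = 0.759). No interaction of the 10 genes passed, and of all probe sets 0.0% did. Mmp16 was the 1 gene of 10 at an unadjusted p under 0.05, where 6.78% of all probe sets lay.

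**Figure D5:**
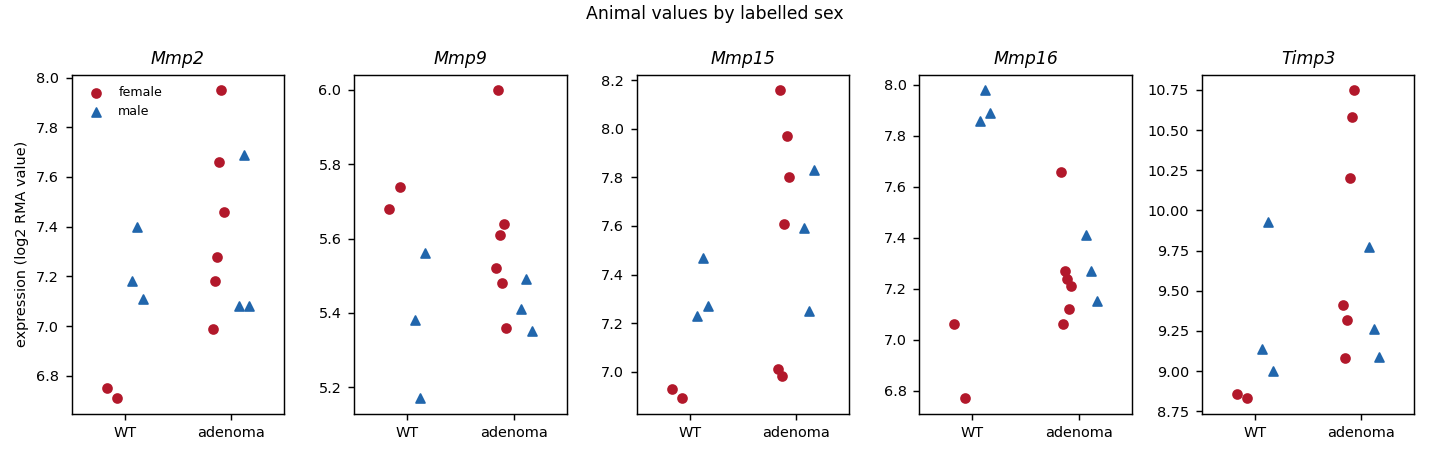
Animal values in log2 RMA units of the 5 genes whose female and male wild-type values did not overlap; red circles are females (2 wild type, 6 mutant) and blue triangles males (3 wild type, 3 mutant). The wild-type sexes are apart in each panel by this choice of genes, and in the adenomas the sexes overlap. Values of 2 and 3 animals fall apart more easily than those of 6 and 3.

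Genes that act with the set were read by list, each against the 17.5% of all probe sets called. Of 15 other MMPs 1 was called (6.67%), Mmp12, the elastase of macrophages, and the list's median difference was −0.019. Mmp12 ran from 4.68 to 6.35 in wild type and from 5.39 to 8.40 in the rats, of which 7 of 9 were above all wild-type values. Its mean was 6.88 ± 0.83 (SD, n = 9) against 5.62 ± 0.66 (SD, n = 5), a rise of 1.26 or 2.39-fold (limma, adjusted p = 0.037). The call was lost without wild type 2, 4 or 5 or rat B, C, H or I, with differences from 1.02 to 1.27, and with array weights (1.31, limma adjusted p = 0.103). Mmp12 belongs to 9 MMP genes of the array that lie on chromosome 8, and the other 8 (Mmp1, Mmp3, Mmp7, Mmp8, Mmp10, Mmp13, Mmp20 and Mmp27) differed by −0.11 to 0.11. The group means of those 8 ran from 3.51 to 5.31, and all but those of Mmp27 were below 4.96, the 25th percentile of all values. RMA understates folds near background, so small differences at such levels do not show that these genes were unchanged. A macrophage list of 13 genes was at 6.29 to 6.84 in wild type and at 6.80 to 7.70 in the rats, with 9 genes called as higher and 0 as lower, and 8 of 9 rats were above all wild-type pituitaries. The part of macrophages in Mmp12 was not tested.

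Of 9 other inhibitors and clearance factors 2 were called (22.2%), both as higher, with a list median of 0.01. A2m, the broad protease trap alpha-2-macroglobulin, went from 7.85 ± 0.47 (SD, n = 5) in wild type to 9.16 ± 0.77 (SD, n = 9) in adenomas, a rise of 1.32 or 2.49-fold (limma, adjusted p = 0.0163), with 8 of 9 rats above all wild-type pituitaries. Without wild type 4 the difference was 1.20 and with array weights 1.24, and both ended the call (limma, adjusted p = 0.0547 and 0.0512). Reck, a membrane-anchored inhibitor of MMPs, rose by 0.50 (limma, adjusted p = 0.0422) from 8.15 ± 0.30 (SD, n = 5) to 8.64 ± 0.31 (SD, n = 9). The Reck call was lost without wild type 1, 2, 4 or 5 or rat A, B, E, G, H or I, with differences from 0.40 to 0.52, and with array weights (0.49) and the methods' t-test with unequal variances (0.51). Lrp1, the scavenger receptor that clears MMP and TIMP proteins, was at 8.56 ± 0.33 (SD, n = 5) and 8.19 ± 0.43 (SD, n = 9) and did not pass (limma, adjusted p = 0.234).

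Of 10 activators and surface partners 2 were called (20.0%), and the list median was 0.088. Bsg, or basigin, the extracellular matrix metalloproteinase inducer, rose by 0.64 from 10.62 ± 0.34 (SD, n = 5) to 11.25 ± 0.19 (SD, n = 9), with 7 of 9 rats above all wild-type pituitaries (limma, adjusted p = 0.00477). Cd151, a tetraspanin of cell adhesion sites, rose by 0.72 from 9.47 ± 0.49 (SD, n = 5) to 10.18 ± 0.21 (SD, n = 9), with 4 of 9 rats above (limma, adjusted p = 0.00987). The methods' t-test with unequal variances on single lesions, which called Mmp14, did not call Bsg (0.65, adjusted p = 0.078) or Cd151 (0.75, adjusted p = 0.124). Furin, the convertase that activates Mmp11 and the membrane-type MMPs, was at 8.48 ± 0.31 (SD, n = 5) and 8.58 ± 0.18 (SD, n = 9), with an adjusted p of 0.625 in limma. None of 9 genes of the plasminogen system was called by limma (0.0%), with a list median of 0.044. The receptor of urokinase, Plaur, was at 6.81 ± 0.23 (SD, n = 5) and 7.03 ± 0.11 (SD, n = 9), with an unadjusted p of 0.0305 and an adjusted p of 0.112 in limma.

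Related proteases and substrates followed. Of 12 measured ADAM and ADAMTS genes 5 were called (41.7%), 4 as higher and 1 as lower, with a list median of 0.27. Adamts9, a secreted protease that cuts proteoglycans, fell by 1.25 from 7.93 ± 0.48 (SD, n = 5) to 6.68 ± 0.21 (SD, n = 9), and all 9 rats were below every wild-type pituitary (limma, adjusted p = 0.000301). Adam9, a membrane-bound sheddase, rose by 0.75 from 7.89 ± 0.22 (SD, n = 5) to 8.64 ± 0.28 (SD, n = 9), with all 9 rats above (limma, adjusted p = 0.00203). Adamts1, a protease of versican and aggrecan, rose by 0.52 (limma, adjusted p = 0.024), a call lost without wild type 3 at a difference of 0.49 and with array weights (0.53). Adamts2, which trims procollagen, rose by 0.39 (limma, adjusted p = 0.0494), and the call was lost without lesion 5 and without any of the 14 animals but rats B and E, with differences from 0.35 to 0.41. In all, the Adamts2 call was lost with 22 of 30 alternatives, among them lesions as samples with the rat as a random block (0.36, limma adjusted p = 0.0643) and sex as a covariate (0.32, limma adjusted p = 0.075).

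Of 13 measured basement membrane genes, whose products are substrates of gelatinases and membrane-type MMPs, 7 were called (53.8%), 3 as higher and 4 as lower, and the list median was −0.035. Lama3, a laminin chain of epithelia, fell by 1.78 from 8.03 ± 0.53 (SD, n = 5) to 6.24 ± 0.50 (SD, n = 9), with all 9 rats below every wild-type pituitary (limma, adjusted p = 0.000455). Col4a1 rose by 0.73 from 7.08 ± 0.12 (SD, n = 5) to 7.81 ± 0.42 (SD, n = 9), and Nid2, the nidogen that links laminin and type IV collagen, rose by 0.73 from 6.89 ± 0.12 (SD, n = 5) to 7.62 ± 0.39 (SD, n = 9). In both, all 9 rats were above every wild-type pituitary (limma, adjusted p = 0.013 and 0.00833). Col4a3 and Col4a4, other chains of type IV collagen, were called as lower (differences −0.62 and −0.65, limma adjusted p = 0.00123 and 0.00207). For Col4a3 all 9 rats were below every wild-type pituitary, and for Col4a4 8 of 9 were. The laminin chain Lama5 was also called as lower (difference −0.49, limma adjusted p = 0.0345). Sparc, a collagen-binding protein of the matrix, rose by 0.83 (limma, adjusted p = 0.0232), and its call was lost without wild type 4 at a difference of 0.75. It was lost also with quantile normalization (0.71), the methods' t-test with unequal variances (0.74) and array weights (0.79). The replicate block, which sets only lesions 1 to 5 against the wild-type pituitaries, ended it too (0.36). Array weights ended the Col4a1 call as well (0.70, limma adjusted p = 0.0564).

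Marker lists of the cells in these samples were read beside the members. All 4 measured gonadotroph markers were called, with Cga and Gnrhr higher in adenomas by 0.91 and 1.40, and with Lhb and Fshb lower (differences −2.24 and −2.38). Cga and Gnrhr encode the common hormone subunit and the GnRH receptor, and Lhb and Fshb the subunits that define the hormones of gonadotrophs. Markers of the growth hormone, prolactin and thyrotropin lineage were called as lower in 5 of 7 genes. The counts were 4 of 5 for corticotrophs and melanotrophs, 5 of 6 for folliculostellate cells and 3 of 6 for posterior lobe glia. In each of these lists the mean level of all 9 rats was below every wild-type pituitary. The prolactin gene Prl itself did not fall (difference 0.08, limma adjusted p = 0.434). Drd2, also of the first of these lists, was not called (difference −0.88, limma adjusted p = 0.0609). Of 10 fibroblast and pericyte markers 5 rose and 1 fell, and the list's mean was 7.55 to 8.06 in wild type and 7.67 to 8.40 in the rats. Of 10 endothelial markers 3 rose, and the means were 7.15 to 7.67 and 7.02 to 7.96. Rat H, highest in Mmp14 at 8.08 and in Mmp2 at 7.95, had the lowest rat means of both lists, 7.67 and 7.02. Rats G, I and C, with Mmp14 at 7.90, 7.89 and 7.51, had the highest fibroblast and pericyte means, 8.40, 8.01 and 7.95. Their endothelial means were 7.56, 7.78 and 7.60, and rat B had the highest, 7.96, with Mmp14 at 6.86. The part of these cells in Mmp14 and Mmp2 was not tested. The part of the loss of normal cells in the members' values was not tested.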

How the data were processed

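Expression was measured on 21 arrays, 16 of lesions and 5 of wild-type pituitaries. Per the labels, the authors made the deposited log2 values with RMA in Affymetrix Expression Console (versions not given in the sources used here); RMA makes array distributions alike and understates folds near background. Array medians were 6.36 to 6.53. Of 29214 probe sets, 15310 carried 1 symbol, 323 several and 13581 none. Each of the 10 genes had 1 probe set. The number of arrays limits the precision.

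Lesions were averaged per sample number, giving 9 adenoma and 5 wild-type values. limma 3.58.1 in R 4.3.3 was fitted to all probe sets, with 12 residual and 3.212 prior degrees of freedom, and called at an adjusted p under 0.05. The script was tested on simulated data. Partner genes were compared by two-sided exact permutation tests. Nothing says how the lesions of a rat are related beyond the number. Of 169 list and marker genes, 138 were matched, and up to 4 called genes per pathway list were named, by size of difference. Lrp1, Furin, Plaur, Col4a3, Col4a4, Lama5, Prl and Drd2 were named after their values were seen. The members, lists and tests were chosen with earlier results of these data known. Alternatives were other fits, scalings, filters, blocks by prefix or replicate number, sex as covariate, subsets and each animal left out.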

Additional observations from a re-analysis of the deposited data

Results flagged for a closer look

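Mmp9 in rat D was 6.00, separated from the other 8 mutant rats by 0.559 of the group's range, above the critical value of 0.493 of Dixon's test. Timp3 in wild type 3 was 9.93, with a gap of 0.718 of the range of the 5 wild-type pituitaries against a critical value of 0.71. These were 2 of 20 groups checked (10 genes in the mutant rats and in wild type), and chance gives about 1 in 20. For Mmp16 every mutant female was above the mean of the wild-type females and every mutant male below that of the wild-type males. The difference between the sexes was −0.98, and its limma interaction term did not pass (adjusted p = 0.265).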

How the results depend on the processing

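With 28 of 30 alternatives no member was called, and with 2 the count was 1, Mmp14, namely with the prefix of the sample number as a block (0.58) and with the methods' t-test with unequal variances (0.45). Leaving out each animal in turn kept the count at 0, with differences of 0.41 to 0.57 for Mmp14, 0.35 to 0.50 for Mmp15, 0.44 to 0.76 for Timp3, 0.26 to 0.44 for Mmp2, −0.43 to −0.13 for Mmp16, 0.03 to 0.11 for Timp4, −0.01 to 0.10 for Mmp11, −0.05 to 0.09 for Mmp9, −0.22 to 0.01 for Timp1 and −0.14 to 0.04 for Timp2. Of 300 values of single members 281 kept direction and side of the threshold, 2 passed it and 17 changed sign. With the other settings the differences ran more widely, from 0.19 to 0.79 for Mmp14, 0.09 to 0.49 for Mmp15, 0.05 to 0.96 for Timp3, 0.20 to 0.51 for Mmp2 and −0.34 to −0.09 for Mmp16. The lowest values of Mmp14 and Timp3 were those of mutant rats of 7 or 8 months alone. With the replicate block Mmp15 was at 0.09, Mmp14 at 0.23 and Timp3 at 0.28. Only the numbers 1 to 5 occur in both groups, so the replicate block compared lesions 1 to 5 with the 5 wild-type pituitaries. Those lesions came from rats A, B and C, and rats D to I did not enter that difference. Signs changed only in genes with differences near 0. Mmp9 was at −0.02 with lesions as independent samples, with both methods' t-tests and with the replicate block, at −0.03 with sex as a covariate, at −0.05 without wild type 3 and at −0.02 without rat D. Mmp11 was at −0.07 with the replicate block and at −0.01 without wild type 3. Timp4 was at −0.02 with the replicate block. Timp1 was at 0.05 in prefix 08 alone and at 0.01 without wild type 5. Timp2 was at 0.15 in prefix 09 alone, at 0.21 in mutant rats of 7 or 8 months alone, and at 0.04, 0.02 and 0.0 without wild type 1, rat A and rat E. The cause of these changes was not tested. Lesions and wild-type pituitaries of the same replicate number share only that number (correlations of their deviations from −0.05 to 0.2), and with the replicate block 0 members were called. The sex and age counts stayed at 0 with every alternative run, and the 4 correlations kept their direction and side of the threshold. The setting without lesion 5 was chosen after seeing the data. A second probe set per gene was not run, since each member has 1. For all 13 list genes named by size of difference, the call was lost with the mutant rats of 7 or 8 months alone, where 0.455% of all probe sets were called. With prefix 08 alone, where 2.42% were called, 12 of these calls (all but that of Adam9) were lost. Some differences were about as large as in the main fit, with 1.34 for Mmp12 and 1.54 for A2m in prefix 08. At 7 or 8 months this held for Cd151 with 0.67 and Bsg with 0.61. The other differences of the list genes in these subsets are not given here, so these values do not stand for all 13 genes. In prefix 09 alone, with 13.4% called, the calls of Mmp12 (1.03), A2m (1.17), Reck (0.42) and Adamts1 (0.67) were lost, and the replicate block also ended those of Adamts1 (0.38) and Adamts2 (0.25).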
